A study of Mus musculus with 15 samples.

Results

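Ncam1, Myh8, Myh3 and Runx1 were followed in skeletal muscle of a mouse model of myotonic dystrophy type 1 through every splicing event that the deposited table lists for them, of every event type and also where only some libraries had a value. The 4 genes had 36 of the 39123 events in the table. Myh8 had 23, Ncam1 had 8, Runx1 had 5 and Myh3 had 0. Events named by coordinates were taken by gene symbol, and the 31 first-exon and last-exon events by the gene ID in their names. The genes were picked with the difference between induced and control muscle already known, so that difference is described here and not tested.

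Denervated and regenerating muscle fibres are known to return to a programme of developing muscle. Ncam1 encodes the neural cell adhesion molecule, which in adult muscle is largely kept at the neuromuscular junction and spreads along the fibre after loss of the nerve. Myh8 and Myh3 encode the perinatal and embryonic myosin heavy chains, motor proteins that adult isoforms replace after birth and that reappear in regenerating fibres. Runx1 encodes a DNA-binding transcription factor that denervated muscle strongly induces, and it is transcribed from a distal and a proximal promoter. In myotonic dystrophy type 1, RNA with an expanded CUG repeat binds the muscleblind-like (MBNL) splicing factors, and many transcripts then carry splice forms of immature muscle.

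All 15 libraries came from mice that the labels give as TREDT960I-HOM, a transgene whose transcript carries the repeat. The 6 induced libraries also carried MDAFrtTA, the transgene for the doxycycline-responsive activator, and the mice received doxycycline (dox) from postnatal day 1. The 9 controls were 3 dox control libraries, with dox but without MDAFrtTA, and 6 no dox libraries, with MDAFrtTA but without dox. Each of weeks 6, 12 and 20 had 2 induced, 1 dox control and 2 no dox libraries. Quadriceps supplied 5 libraries (2 induced, 3 no dox) and gastrocnemius 10 (4 induced, 3 no dox and the 3 dox controls). The quadriceps controls were week 12 no dox replicate 2 and both no dox libraries of week 20. The mouse of week 6 no dox replicate 2 was male and the others were female. The promoter that drives MDAFrtTA is not given in the sources used here, and both kinds of control carry the repeat transgene too.

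The measured quantity was percent spliced in (PSI), the estimated share of transcripts that carry one of the alternative forms, given as a fraction. For first-exon and last-exon events, PSI of a form means the listed value of the event that names it first. Whether that value counts this form or the other one is not stated, so no gain or loss of a named form is read from it. A library had a value for 34416 to 36959 events, and how many reads lay behind each value is unknown. A 54-nt exon of Mbnl1 (chromosome 3), whose inclusion is known to rise when MBNL activity is lost, was used to check the labels, and it lay between 0.12 and 0.33 in induced libraries and between 0.04 and 0.08 in controls. The library of week 6 induced replicate 1 was the lowest of the induced ones at 0.12. Over all 31267 events measured in every library, 2 were called for induced against control and 40 when that library was left out, so means without it are given below where they move by over 1.5 times. The table holds no expression levels. Markers of muscle fibre had 8 events (4 of 6 marker genes), of which 8 had a value in each induced library and 7 in each control. Schwann cell markers had 12 events with a value in every library, immune markers had 11 to 14 of 15 events with a value in induced libraries and 12 to 15 in controls, and the single event of satellite cell markers had a value in some libraries of both arms. The events of endothelial (8) and fibroblast (2) markers had a value in every library. Acta1 and Ckm, defining transcripts of muscle fibres, had no event. In bulk muscle, a shift of splicing within fibres and a shift in which cells supply the RNA cannot be told apart.

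The first-exon events of Runx1 and Myh8 compare transcripts that begin at different start sites, so the promoters that RefSeq annotates for them (build GRCm38.p6, 300 bases each, most of them upstream of the start site) are shown 5′ to 3′ on the strand of the gene. Capitals mark matches to 3 motifs on either strand, and none of the marked matches overlap. The E-box CANNTG is the site of myogenic bHLH factors such as MyoD. Runx proteins are known to bind the RUNX site TGTGGT. The third motif is the TATA box, written TATAAA. The table of promoters holds a pair of entries for Runx1, which lies on the minus strand of chromosome 16, and a single entry for Myh8, on the plus strand of chromosome 11. The distal one of Runx1 is chr16:92826025-92826324, the proximal one is chr16:92697280-92697579, and that of Myh8 is chr11:67276874-67277173.
Runx1 distal: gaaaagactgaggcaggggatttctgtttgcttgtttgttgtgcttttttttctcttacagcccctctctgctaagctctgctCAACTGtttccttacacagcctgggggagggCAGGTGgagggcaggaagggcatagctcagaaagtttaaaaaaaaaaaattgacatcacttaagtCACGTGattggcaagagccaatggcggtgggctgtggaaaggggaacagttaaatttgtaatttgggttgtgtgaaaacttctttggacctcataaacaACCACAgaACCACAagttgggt
Runx1 proximal: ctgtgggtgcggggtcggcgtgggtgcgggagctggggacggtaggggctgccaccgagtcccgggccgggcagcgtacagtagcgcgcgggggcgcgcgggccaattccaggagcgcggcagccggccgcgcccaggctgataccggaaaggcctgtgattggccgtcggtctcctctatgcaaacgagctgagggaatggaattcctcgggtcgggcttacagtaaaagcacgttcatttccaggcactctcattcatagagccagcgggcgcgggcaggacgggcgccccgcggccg
Myh8: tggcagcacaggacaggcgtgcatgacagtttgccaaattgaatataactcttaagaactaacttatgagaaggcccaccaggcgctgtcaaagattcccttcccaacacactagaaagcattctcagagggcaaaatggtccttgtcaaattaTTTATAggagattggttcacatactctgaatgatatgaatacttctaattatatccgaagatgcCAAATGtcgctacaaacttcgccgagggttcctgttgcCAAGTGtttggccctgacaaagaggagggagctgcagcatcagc
The distal Runx1 promoter had 3 E-boxes, at -167, -136 and -71 from the start site, and 2 RUNX sites on the opposite strand at 28 and 36 bases past it. No match to any of the motifs lay in the proximal one, which was also richer in G and C (69.0%, against 45.0% in the distal one). The Myh8 promoter (44.7% G and C) had E-boxes at -32 and 6 and a TATA box match on the opposite strand at -96. Of 32851 mouse promoters of the same length, 72.3% held an E-box, 16.8% a RUNX site and 13.6% a TATA box, so an E-box alone sets no promoter apart. Which of the listed transcripts starts at which of these sites is not given in the files.

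Runx1 showed the cleanest division between the arms. PSI of the first-exon event that sets the form uc007zzl.1 against uc007zzj.1 and uc007zzk.1 had its lowest, median and highest values at 0.75, 0.785 and 0.89 in induced libraries, against 0.34, 0.66 and 0.73 in controls. All 6 induced libraries lay above all 9 controls, by a narrow margin, with week 12 induced replicate 2 (0.75) just over week 6 no dox replicate 2 (0.73). The mean was 0.797 ± 0.050 in induced libraries (SD, n = 6) and 0.603 ± 0.127 in controls (SD, n = 9). The controls were the more scattered arm, since the dox controls stood close together at 0.68, 0.67 and 0.65 while the no dox libraries ran between 0.34 and 0.73. By week the induced means were 0.785, 0.820 and 0.785 and the control means 0.583, 0.630 and 0.597 at weeks 6, 12 and 20, so neither arm moved in a steady direction with age.

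A second first-exon event of Runx1, of uc007zzh.1 and uc007zzi.1 against the same pair of forms, repeated this pattern with 0.833 ± 0.046 (SD, n = 6) in induced muscle and 0.641 ± 0.136 (SD, n = 9) in control muscle. It ran between 0.79 and 0.92 in induced libraries, against 0.37 to 0.76 in controls. The events share the forms uc007zzj.1 and uc007zzk.1, followed each other at r = 0.988 over 15 libraries and never differed by more than 0.08, so they are 1 signal and not a repeat of it. The fitted differences, induced minus control, averaged over weeks with a term for muscle, were 0.193 (SE 0.062) for the uc007zzl.1 event and 0.192 (SE 0.066) for the other. With any one library left out the uc007zzl.1 difference stayed between 0.153 and 0.218, and it was 0.174 in gastrocnemius alone and 0.190 in quadriceps alone. Only week 20 has quadriceps of both arms, so the quadriceps value sets a single induced library, week 20 induced replicate 2, against the no dox libraries of week 20. In gastrocnemius, weeks 6 and 20 have a single induced library each, and week 20 a single control, its dox control.

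The remaining events of Runx1 differed little between the arms. The last-exon event of uc007zzl.1 against uc007zzh.1 averaged 0.023 in induced and 0.053 in control libraries, and the one against uc007zzi.1, uc007zzj.1 and uc007zzk.1 averaged 0.033 in induced and 0.072 in control libraries. A 192-nt exon (chromosome 16, 92644154 to 92644345) had nearly the same mean inclusion in the arms, with 0.652 ± 0.085 (SD, n = 6) in induced muscle and 0.652 ± 0.125 (SD, n = 8) in control muscle. That exon had no value in week 12 no dox replicate 2. Its inclusion ran between 0.52 and 0.75 in induced and between 0.43 and 0.82 in control libraries, so the first exons divided the arms and this internal exon did not.

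**Figure D1:**
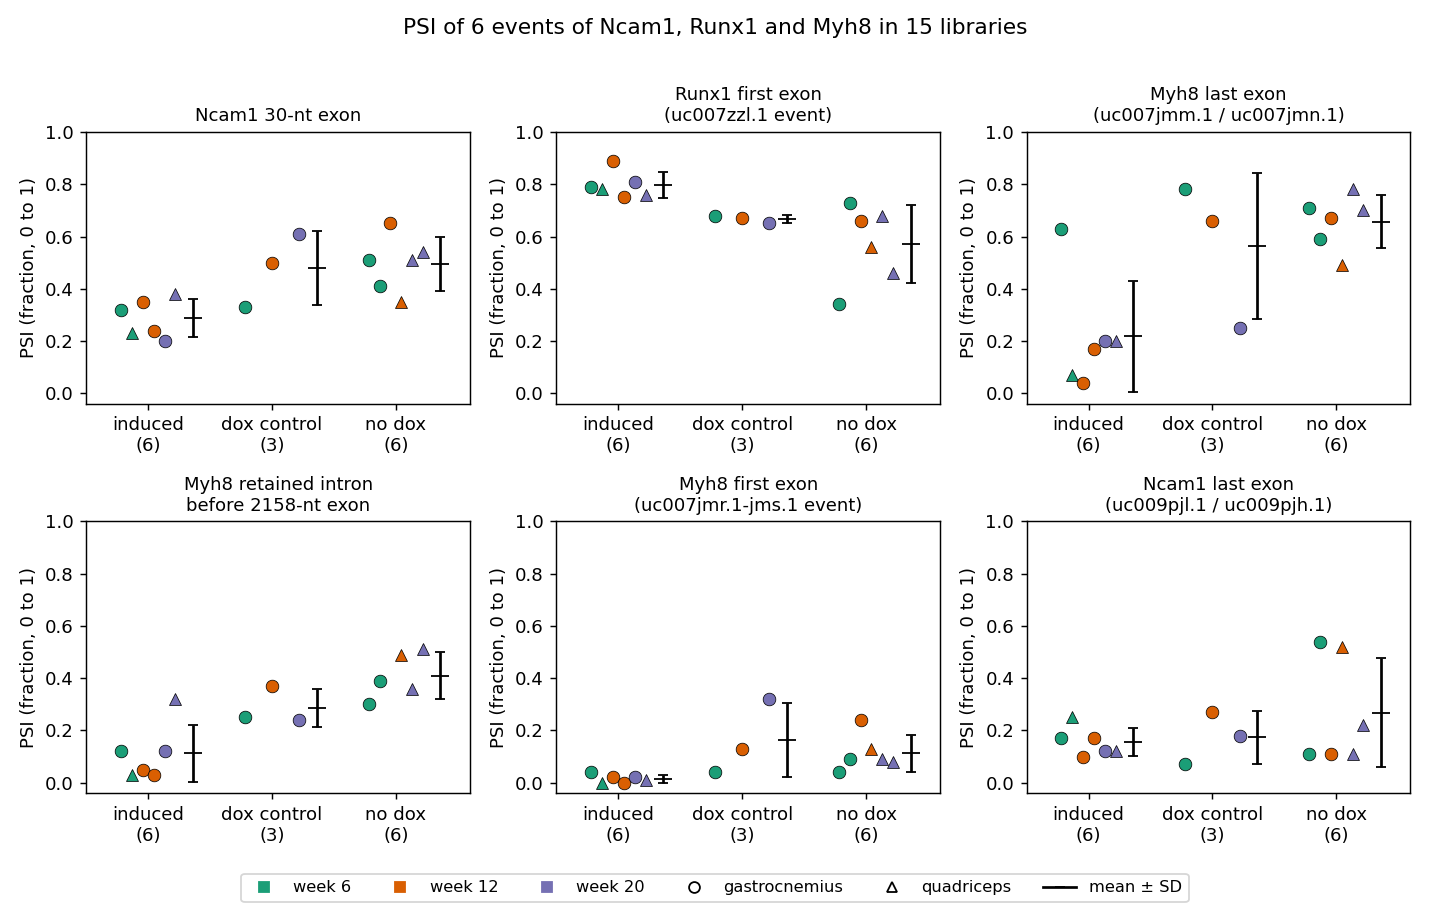
PSI (fraction, vertical axis) of 6 events of Ncam1, Runx1 and Myh8 in induced, dox control and no dox libraries, 1 point per library, with colour for week, shape for muscle and a bar for mean and SD of each group. The 6 induced libraries lie above all controls for the Runx1 first exon, 4 of 6 lie below all controls for the Ncam1 exon, and week 6 induced replicate 1 stands at 0.63 among the controls for the Myh8 last exon.

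In Ncam1 the event with the largest difference of means was a 30-nt skipped exon on the minus strand (chromosome 9, 49550540 to 49550569, build mm10), between exons of 143 nt and 151 nt. NCAM transcripts are known for a short alternative exon called VASE within an immunoglobulin-like domain, but the files give no such name for this exon. Its lowest, median and highest inclusion was 0.20, 0.28 and 0.38 in induced libraries, against 0.33, 0.51 and 0.65 in controls. The arms overlapped: 4 of 6 induced libraries lay below every control, while week 12 induced replicate 1 (0.35) and week 20 induced replicate 2 (0.38) reached the range of the controls, the lowest of which were the dox control of week 6 (0.33) and week 12 no dox replicate 2 (0.35). The mean was 0.287 ± 0.073 (SD, n = 6) in induced muscle and 0.490 ± 0.109 (SD, n = 9) in control muscle. Induced libraries held one level over the weeks, with means of 0.275, 0.295 and 0.290 at weeks 6, 12 and 20, while the control means were 0.417, 0.500 and 0.553. The fitted difference was -0.203 (SE 0.051), with -0.256 to -0.150 when single libraries were left out.

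The other splice-site and end-exon events of Ncam1 overlapped between the arms. An alternative acceptor that moves the splice site by 3 nt averaged 0.290 in induced and 0.287 in control libraries. First-exon PSI of uc009pje.1 against uc009pjf.1, uc009pjg.1 and uc009pjh.1 averaged 0.833 ± 0.087 (SD, n = 6) in induced muscle and 0.769 ± 0.099 (SD, n = 9) in control muscle. For uc009pjl.1 against the same 3 forms the means were 0.175 ± 0.088 (SD, n = 6) in induced muscle and 0.291 ± 0.177 (SD, n = 9) in control muscle, where a single library, week 6 no dox replicate 1, stood at 0.72 and the others at 0.37 or less. The fitted difference of that event was -0.116 (SE 0.076), and -0.061 without that library. The event of uc009pje.1 against uc009pjl.1 averaged 0.053 in the 6 induced libraries and 0.128 in the 8 controls with a value.

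For the last exons of Ncam1, uc009pjl.1 against uc009pjh.1 averaged 0.155 ± 0.055 (SD, n = 6) in induced muscle and 0.237 ± 0.178 (SD, n = 9) in control muscle. The wide spread of the controls came from week 6 no dox replicate 2 (0.54) and week 12 no dox replicate 2 (0.52), and the same libraries were the high ones, at 0.35 and 0.38, for uc009pjl.1 against uc009pje.1, uc009pjf.1 and uc009pjg.1, where every other library lay between 0.01 and 0.13. That second event averaged 0.038 in induced and 0.120 in control libraries, and uc009pjh.1 against those 3 forms averaged 0.145 in induced and 0.181 in control libraries. The table lists Gm11149 on the opposite strand within Ncam1, and its exon of 197 nt (chromosome 9, 49546147 to 49546343) covers the 151-nt exon downstream of the 30-nt exon. PSI of the mutually exclusive event of Gm11149 averaged 0.892 ± 0.036 (SD, n = 6) in induced muscle and 0.788 ± 0.081 (SD, n = 9) in control muscle. Whether reads were counted by strand is not stated, so reads of the 151-nt exon and of the exon with these acceptor sites may belong to either gene. The part of this overlap in the Ncam1 values was not tested.

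Myh8 had the widest differences and the most missing values. It is one of a cluster of skeletal myosin genes on chromosome 11 with closely alike coding sequences, how reads that fit several of them were assigned is not given, and all Myh8 values carry that uncertainty. The last-exon event of uc007jmm.1 against uc007jmn.1 had its lowest, median and highest PSI at 0.04, 0.185 and 0.63 in induced libraries, against 0.25, 0.67 and 0.78 in controls. In 5 of 6 induced libraries it lay between 0.04 and 0.20, below every control, and week 6 induced replicate 1 stood at 0.63 among the controls. The dox control of week 20 was the lowest control at 0.25, and the other 8 controls lay between 0.49 and 0.78. The mean was 0.218 ± 0.213 (SD, n = 6) in induced libraries, 0.136 ± 0.076 (SD, n = 5) in induced libraries without week 6 induced replicate 1, and 0.626 ± 0.167 (SD, n = 9) in controls. The fitted difference was -0.407 (SE 0.102), with -0.52 without that library, -0.224 in gastrocnemius alone and -0.54 in quadriceps alone. The quadriceps value again rests on week 20 induced replicate 2 against the no dox libraries of week 20. In gastrocnemius, week 6 holds a single induced library, replicate 1 (0.63). Week 20 sets only induced replicate 1 (0.20) against the dox control (0.25). The values of the muscles are therefore not a comparison of muscles. The 3 induced libraries with the highest inclusion of the Mbnl1 exon (0.28 to 0.33) had 0.04, 0.07 and 0.17 for this Myh8 event, and the 3 with the lowest (0.12 to 0.14) had 0.63, 0.20 and 0.20. For the Ncam1 exon the same groups overlapped, with 0.23 to 0.35 in the first and 0.20 to 0.38 in the second. So did the Runx1 first exon of uc007zzl.1, with 0.75 to 0.89 in the first and 0.76 to 0.81 in the second. The first group holds both induced libraries of week 12 and week 6 induced replicate 2. The second holds both of week 20 and week 6 induced replicate 1. Week and the Mbnl1 exon therefore cannot be told apart in these groups, and a link to the Mbnl1 exon was not tested.

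The form uc007jmm.1 enters 4 further last-exon events of Myh8. Against it, PSI of uc007jml.1 averaged 0.092 ± 0.068 (SD, n = 6) in induced muscle and 0.014 ± 0.011 (SD, n = 9) in control muscle, and PSI of uc007jms.1 averaged 0.102 ± 0.074 (SD, n = 6) in induced muscle and 0.018 ± 0.013 (SD, n = 9) in control muscle. For each of them 4 of 6 induced libraries lay above every control, and the other 2 lay at 0.04 or less, within the range of the controls. The event of uc007jmq.1 against uc007jmm.1 is listed between 0.92 and 0.99 in both induced and control libraries, far above the other forms, and uc007jmr.1 against uc007jmm.1 at 0.005 in induced and 0.003 in control libraries.

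Last-exon events that share forms should fit each other, since the odds of one form over another follow from the odds of each over any common form. For uc007jml.1, uc007jmm.1 and uc007jmn.1 the listed and the implied PSI differed by a median of 0.004 over the libraries, and the sets with uc007jmr.1 or uc007jms.1 in place of uc007jml.1 differed by 0.005 and 0.007. The 4 sets that hold the event of uc007jmq.1 and uc007jmm.1 differed by 0.676 to 0.975 as listed and by 0.008 to 0.135 once its PSI was replaced by 1 minus PSI. That event was therefore read the other way round on the common scale, where it averaged 0.050 ± 0.028 (SD, n = 6) in induced muscle and 0.028 ± 0.023 (SD, n = 9) in control muscle. The choice was made from these same values, so the closer fit is no test of it. With that reading, the 8 sets that hold no pair of uc007jml.1 with uc007jmq.1, uc007jmr.1 or uc007jms.1 differed by 0.004 to 0.073. The 5 of them without the turned event differed by 0.004 to 0.021. The 8 sets that hold such a pair differed by 0.135 to 0.558. Turning these 3 pairs round as well, a step chosen after the values were seen, brought some of the sets close (0.03 to 0.05 in 4 of them) and not others (up to 0.764). The 3 events are therefore given as listed, and their direction relative to the others is unsure. The sets fix directions only relative to each other, and which form PSI counts is not stated for any last-exon event. On the common scale the dox control of week 20 had the highest value of any control against uc007jmm.1 for each of uc007jml.1, uc007jms.1, uc007jmq.1 and uc007jmn.1, with 0.04, 0.04, 0.08 and 0.75.

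**Figure D2:**
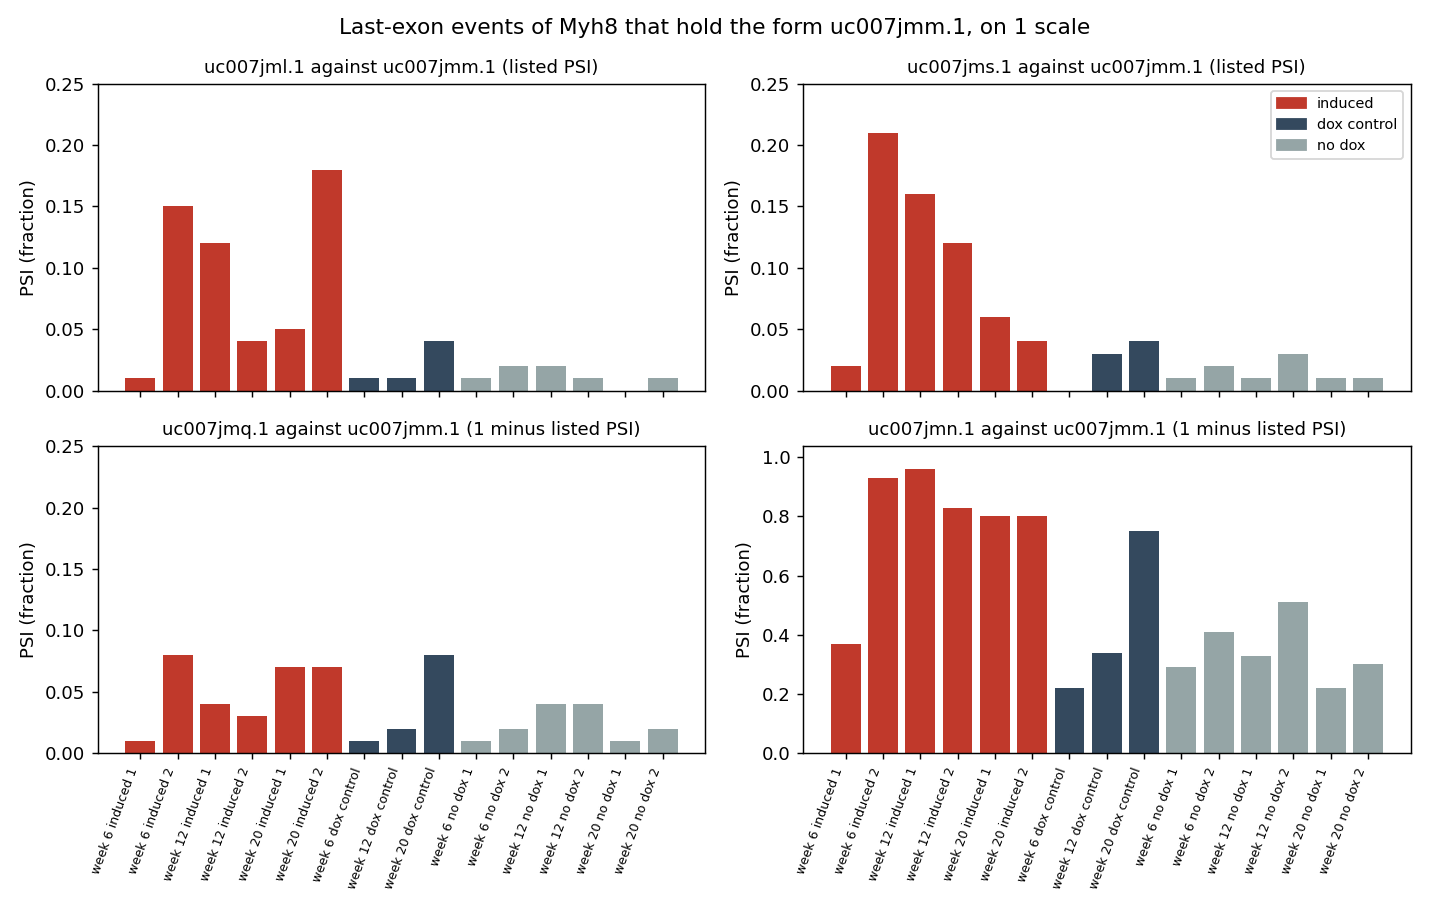
PSI (fraction, vertical axis) of 4 last-exon forms of Myh8, each set against uc007jmm.1 and turned to a common direction, in each of the 15 libraries (bars, coloured by arm). For uc007jmn.1, 5 induced libraries stand between 0.80 and 0.96, and week 6 induced replicate 1 stands at 0.37. The direction is common to the panels, but which form PSI counts is not stated.

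For the forms other than uc007jmm.1, values against uc007jmn.1 were small. PSI of uc007jmr.1 was listed at 0 in all 6 induced libraries and between 0.01 and 0.03 in the controls, which is the only event of the 36 in which every induced library lay lower, by 1 to 3 steps of the printed scale. PSI of uc007jmq.1 averaged 0.015 in induced and 0.054 in control libraries, that of uc007jml.1 averaged 0.018 in induced (0.012 without week 20 induced replicate 2) and 0.026 in control libraries, and that of uc007jms.1 averaged 0.022 in induced and 0.037 in control libraries. Among the forms other than uc007jmm.1 and uc007jmn.1, the event of uc007jml.1 against uc007jmr.1 is listed at 0.110 ± 0.063 (SD, n = 6) in induced muscle and 0.337 ± 0.154 (SD, n = 7) in control muscle. Its direction is unsure, since each of the 3 sets that hold it missed by 0.475 to 0.558 as listed. With this event alone turned round, the sets with uc007jmm.1 and with uc007jmn.1 missed by 0.049 each, and the set with uc007jmq.1 by 0.425. The odds over uc007jmm.1 imply a mean of 0.884 in induced and 0.664 in control libraries, and those over uc007jmn.1 imply 0.731 in induced and 0.638 in control libraries, so that the listed and the implied values put the arms in opposite order. The event of uc007jmq.1 against uc007jmr.1 averaged 0.235 in 4 induced and 0.510 in 3 control libraries, and the 8 other libraries had no value. As listed, the events of uc007jml.1 against uc007jms.1 (0.577 in induced, 0.583 in control libraries), uc007jml.1 against uc007jmq.1 (0.672 in induced, 0.621 in control libraries) and uc007jmq.1 against uc007jms.1 (0.727 in induced, 0.656 in control libraries) overlapped.

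The retained intron before a 2158-nt exon of Myh8 (chromosome 11, exons 67289527 to 67289836 and 67289943 to 67292100, plus strand) was kept less in induced muscle. Its lowest, median and highest retention was 0.03, 0.085 and 0.32 in induced libraries, against 0.24, 0.365 and 0.51 in the 8 controls with a value. Again 5 of 6 induced libraries lay below every control, but the exception was another library, week 20 induced replicate 2 at 0.32, and week 6 induced replicate 1 (0.12) stood with the others. The means were 0.112 ± 0.110 (SD, n = 6) in induced muscle, 0.070 ± 0.046 (SD, n = 5) without week 20 induced replicate 2, and 0.364 ± 0.10 (SD, n = 8) in control muscle. The other intron, which ends at an exon of 119 nt, was retained at 0.032 in induced (0.020 without week 20 induced replicate 1, at 0.09) and 0.071 in control libraries.

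First-exon PSI of uc007jmr.1 and uc007jms.1 against uc007jml.1, uc007jmm.1 and uc007jmn.1 had its lowest, median and highest values at 0, 0.015 and 0.04 in induced libraries, against 0.04, 0.09 and 0.32 in controls. A tie at 0.04 joined week 6 induced replicate 1 to 2 controls of week 6, and the other 5 induced libraries lay below every control. The mean was 0.015 ± 0.015 (SD, n = 6) in induced muscle and 0.129 ± 0.094 (SD, n = 9) in control muscle, with a fitted difference of -0.114 (SE 0.028). Against uc007jmo.1 the same forms averaged 0.027 (n = 6) in induced and 0.130 (n = 7) in control libraries, and against uc007jmp.1 they averaged 0.050 (n = 6) in induced and 0.222 (n = 6) in control libraries. The induced mean against uc007jmp.1 was 0.020 ± 0.012 (SD, n = 5) without week 6 induced replicate 1 (0.20), and the control mean was 0.146 ± 0.168 (SD, n = 5) without week 6 no dox replicate 2 (0.60). Against uc007jmq.1 only 3 induced (mean 0.207) and 3 control libraries (mean 0.307) had a value, and these means were 0.040 without week 12 induced replicate 1 (0.54) and 0.17 without the dox control of week 12 (0.58). The 3 first-exon events led by uc007jmq.1 lay near the middle of the scale and overlapped, with means of 0.513 to 0.553 in induced and 0.462 to 0.474 in control libraries.

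The table gives no reason for a missing value. Of the 23 Myh8 events, induced libraries had a value for 21 to 23 (median 22.5) and controls for 14 to 23 (median 21). The fewest were in week 12 no dox replicate 1 (14) and the dox control of week 20 (17), so the ranges overlap. Ncam1 had all 8 values in 14 libraries and 7 in week 6 no dox replicate 1. Runx1 had all 5 in 14 libraries and 4 in week 12 no dox replicate 2. A count of events with a value is no measure of expression, and Myh3 had no event in which it could be followed at all.

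**Figure D3:**
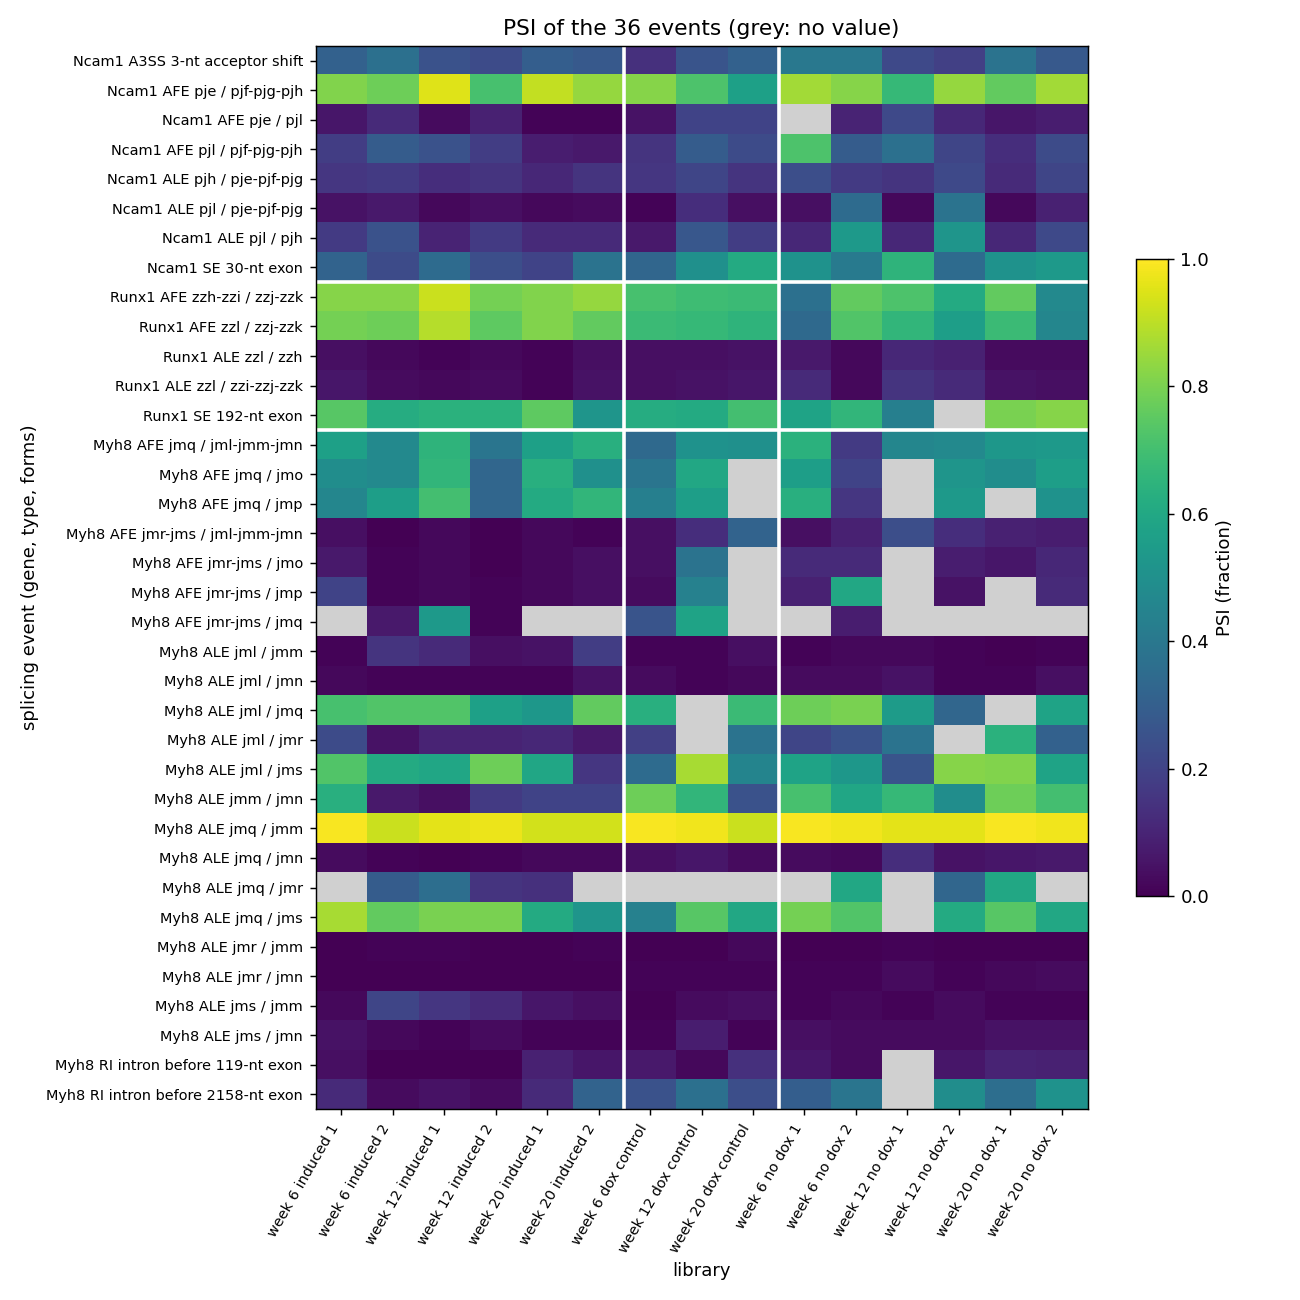
PSI (colour, fraction) of the 36 events (rows, by gene and event type, forms shortened to their last 3 letters) in the 15 libraries (columns, induced left), with grey for no value. Ncam1 and Runx1 have 1 grey field each, and the grey fields of Myh8 gather in week 12 no dox replicate 1 and the dox control of week 20.

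Across the 36 events the difference of means, induced minus control, was at least 0.1 higher in 2 and at least 0.1 lower in 9, and 25 lay within 0.1, with the events of uncertain direction taken as listed. Among the 9 is the last exon of uc007jml.1 against uc007jmr.1, which would be higher in induced muscle if turned round. Of the 23 events measured in all libraries, 2 were higher, 4 lower and 17 within 0.1. Their median difference was -0.016 and their median absolute difference 0.064, beside 0.013 over all 31267 events. Over all of those, 587 were at least 0.1 higher, 647 at least 0.1 lower and 30033 within 0.1. The arms did not overlap in 3 of the 36, beside 0.125% of all events, and in 2 of these the means differed by at least 0.1, beside 0.0832% of all events. The genes were chosen on this contrast, so nothing is read from these shares.

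The members were also compared with each other. Over 14 libraries the Myh8 last-exon event of uc007jmm.1 and the Myh8 retained intron had r = 0.659, but r was 0.226 within the 6 induced and 0.128 within 8 control libraries. The Ncam1 exon and that last-exon event had r = 0.524 over 15 libraries, 0.167 within induced and -0.219 within control libraries. The Ncam1 exon and the Runx1 first exon of uc007zzl.1 had r = -0.545 over 15 libraries, 0.229 within induced and -0.107 within control libraries. These pairs come from the same libraries and differ between the same arms, so the pooled values describe the arms.

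Muscle, dox with the transgene background, and age played no part in the choice of the genes, and limma with Benjamini-Hochberg adjustment over all 31267 events tested them. The threshold for a call was an adjusted p of 0.05 together with a difference of 0.1 in PSI. Of the 23 member events with a value in every library, 0 were called for quadriceps against gastrocnemius, beside 0.00320% of all events. At an unadjusted p under 0.05 there was 1, beside 7.54% of all events, and on the logit scale 0 were called and 1 passed unadjusted. On the PSI scale that event was the Myh8 first exon of uc007jmr.1 and uc007jms.1, with 0.062 ± 0.055 (SD, n = 5) in quadriceps and 0.094 ± 0.107 (SD, n = 10) in gastrocnemius and a fitted difference of -0.094 (SE 0.034, limma adjusted p = 0.620). Without the dox control of week 20, a gastrocnemius library at 0.32, the difference was -0.037. For the Ncam1 exon the muscles averaged 0.402 ± 0.126 (SD, n = 5) in quadriceps and 0.412 ± 0.152 (SD, n = 10) in gastrocnemius, a fitted difference of -0.069 (SE 0.063, limma adjusted p = 0.856). Fitted differences of the 23 events between the muscles ran between -0.094 and 0.107.

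For dox control against no dox, 0 member events were called by limma, beside 0% of all events, and 0 passed at an unadjusted p under 0.05, beside 3.58% of all events. On the logit scale both counts were 0 too. The fitted differences ran between -0.146 and 0.084, and the smallest adjusted p was 1.000. All 3 dox control libraries were of gastrocnemius. The Ncam1 exon had 0.480 ± 0.141 (SD, n = 3) in dox controls and 0.495 ± 0.105 (SD, n = 6) in no dox libraries, with a fitted difference of -0.043 (SE 0.077). The Runx1 first exon of uc007zzl.1 averaged 0.667 ± 0.015 (SD, n = 3) in dox controls and 0.572 ± 0.149 (SD, n = 6) in no dox libraries. The dox controls of that event also lay below all 6 induced libraries, whose mice received dox and carried MDAFrtTA. That order belongs to the induced contrast, on which the genes were chosen, and was not tested.

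For week 20 against week 6 in controls, 0 member events were called by limma, beside 0% of all events, and 1 passed at an unadjusted p under 0.05, beside 5.32% of all events. On the logit scale 0 were called and 1 passed unadjusted. The same Myh8 first-exon event passed unadjusted in limma, with control means of 0.057, 0.167 and 0.163 at weeks 6, 12 and 20 and a fitted difference of 0.169 (SE 0.049, limma adjusted p = 0.758). Leaving out the dox control of week 20 gave 0.065. The gain in the control means of the Ncam1 exon had a fitted difference of 0.183 (SE 0.089, limma adjusted p = 0.955), and fitted differences of all 23 events ran between -0.172 and 0.183. With the 34 member events valued in at least 10 libraries, 0 were called, beside 0% of all events, and 4 passed unadjusted, beside 5.41% of all events. They were the Myh8 first exon again, the Myh8 intron before the 119-nt exon (0.0705, SE 0.019, limma adjusted p = 0.717), the last-exon event of uc007jml.1 against uc007jmr.1 as listed (0.245, SE 0.10, limma adjusted p = 0.902) and the 192-nt exon of Runx1 (0.194, SE 0.083, limma adjusted p = 0.914). Each week holds 3 controls. Those of week 6 were all gastrocnemius, while at week 20 only the dox control was, so age and muscle are partly confounded in controls. The standard error of the Ncam1 exon was larger here than between muscles (0.063) or control types (0.077). This contrast and the one of dox use the same controls as the induced contrast.

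**Figure D4:**
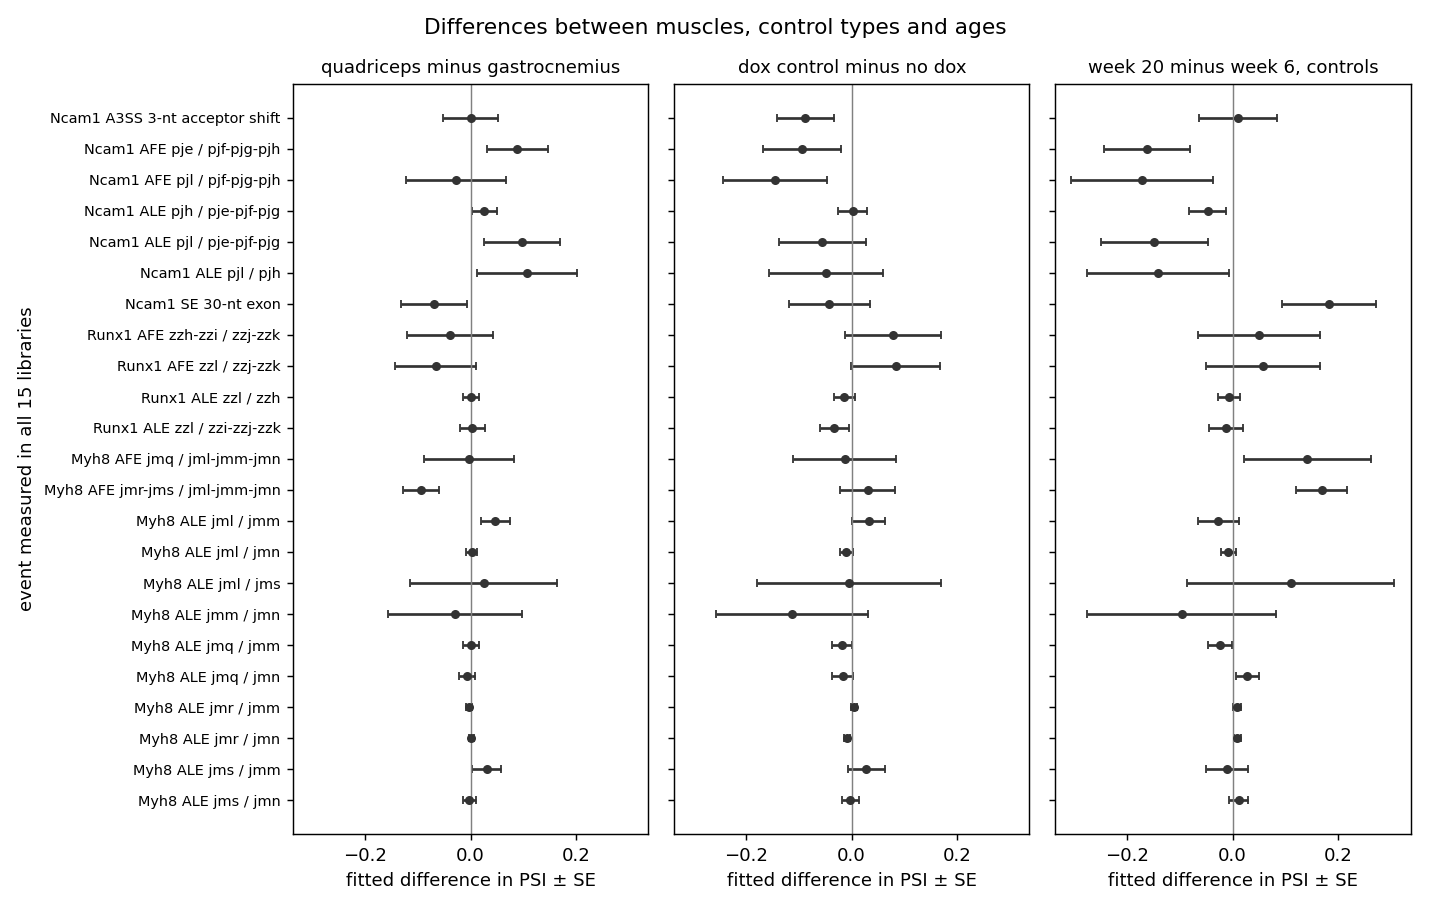
Fitted difference in PSI with its standard error (horizontal axes) for the 23 events measured in all 15 libraries, for quadriceps minus gastrocnemius, dox control minus no dox, and week 20 minus week 6 in controls. The first exon of Myh8 labelled jmr-jms / jml-jmm-jmn stands furthest from 0 in units of its error, at -0.094 between the muscles and 0.169 between the weeks, and no event was called.

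Among other genes of these pathways, 124 were listed for denervation and the neuromuscular junction, regeneration, sarcomeric myosins, partners and relatives of Ncam1, and the Runx family with its cofactors, and 68 of them had 257 tested events. For induced against control 0 were called by limma, beside 0.00640% of all events, and 0 on the logit scale. At an unadjusted p under 0.05 there were 31, which is 12.1%, beside 6.26% of all events, and the median difference was 0.001. With single libraries left out there were 19 to 33 at that p, the fewest without week 20 induced replicate 2, where the share was 7.39%, beside 6.28% of all events. By list these were 9 of 73 events for the neuromuscular junction and denervation, 9 of 79 for regeneration and myogenesis, 3 of 20 for sarcomeric myosins, 3 of 30 for adhesion and 7 of 55 for the Runx family and cofactors. These shares are descriptive, since the lists were put together with earlier results known.

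The 3 list events with the smallest p show the scale of these differences. An alternative donor of Myl4, the atrial and embryonic light chain of myosin, had 0.012 ± 0.008 (SD, n = 6) in induced muscle and 0.029 ± 0.009 (SD, n = 9) in control muscle (limma adjusted p = 0.299). An alternative first exon of Hdac9, a class IIa histone deacetylase of the denervation response, had 0.287 ± 0.088 (SD, n = 6) in induced muscle and 0.188 ± 0.047 (SD, n = 9) in control muscle (limma adjusted p = 0.435). Mutually exclusive exons of Mef2c, a transcription factor of muscle differentiation, had 0.472 ± 0.093 (SD, n = 6) in induced muscle and 0.329 ± 0.047 (SD, n = 9) in control muscle, a fitted difference of 0.143 (SE 0.036, limma adjusted p = 0.435).

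Events of other genes were ranked by Pearson's r with the most variable event of each gene, over 15 libraries and 13127 to 13131 events with an SD of at least 0.05. The Myh8 last-exon event of uc007jmm.1 and uc007jmn.1 was followed most closely by a last exon of Dtna (r = 0.903), a first exon of Cyhr1 (r = 0.888) and an exon of Mprip (r = 0.884), and ran opposite to exons of Mpdz (r = -0.908), Wnk1 (r = -0.873) and Ldb3 (r = -0.861). For the Runx1 first exon of uc007zzh.1 and uc007zzi.1 the closest were events of Ap3m1 (r = 0.836), Prepl (r = 0.807) and Polk (r = 0.803), and the most opposite were events of Rfx3 (r = -0.878), Ptcd3 (r = -0.875) and Nsd1 (r = -0.860). The most variable Ncam1 event, the first exon of uc009pjl.1, was closest to events of Kdm2b (r = 0.875), Stxbp5 (r = 0.866) and Usp53 (r = 0.862) and most opposite to Dysf (r = -0.833), Banp (r = -0.817) and Cap2 (r = -0.814). For the Ncam1 30-nt exon, added after its values were seen, events of Spin1 (r = 0.848), Stard10 (r = 0.831) and Kcnma1 (r = 0.829) were the closest, and events of Huwe1 (r = -0.840), Lilrb3 (r = -0.814) and Ccnc (r = -0.808) the most opposite. With 15 libraries and so many events, values of this size are the extremes of a large search, and libraries share arm, muscle and week.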

How the data were processed

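Poly-A RNA of 15 skeletal muscle libraries was sequenced from both ends, per the labels' protocols. The authors deposited 1 table of PSI, a fraction from 0 to 1 with 2 decimals, per the file headers. TopHat and build mm10 are listed in the submitters' processing notes, and the name of the deposited table points to MISO. Sources used here give no versions, annotation, strandedness or minimum of reads. Counts were not used here, so depth is unknown and no counting interval is given. Which end of a first-exon or last-exon event its PSI counts is not stated. For skipped exons and retained introns PSI is taken as inclusion and retention. The table holds 0 columns of other samples.

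Columns were matched to libraries by the identifier in the titles. The column names number the week 6 induced pair the other way than the titles, which were followed. Libraries correlated at r = 0.943 to 0.968, so none appeared to be a copy of another. The file's symbol column names Gas7 for all 21 Myh8 events that carry a gene ID, so IDs were used there, and 1 event with the symbol Ncam1 but the ID of another gene was left out. Replicates are muscles with no animal numbers, and the p-values therefore reflect spread between libraries, which may be technical.

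limma 3.58.1 in R 4.3.3 was fitted with variance trend and robust moderation to the 31267 events with a value in all 15 libraries. The design held a mean per week and arm plus muscle, or condition, week and muscle for dox control against no dox. Tests were two-sided, and Benjamini-Hochberg adjustment ran over all events. The fit was checked on simulated data. Alternatives were a logit of PSI after adding 0.01, no muscle term, mean PSI of 0.05 to 0.95, events valued in at least 10 libraries, no trend or robust moderation, single muscles, no dox libraries alone as controls, a replicate block, and each library left out.

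All events of the 4 genes are accounted for, and those in at least 10 libraries with an SD of at least 0.05 are described in full. Of the lists, called events and the 3 smallest p are named. For likeness, the 3 highest and 3 lowest r to each gene's most variable complete event are named. Members, lists and tests were chosen with earlier results of these data known. Promoters are from RefSeq (GRCm38.p6) and matched by symbol, with entries for Myh3, Myh8 and Runx1 among the 4 genes.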

Additional observations from a re-analysis of the deposited data

Results flagged for a closer look

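In 48 groups of 4 to 10 values of member events, 9 had a library whose distance to its nearest neighbour took up an unusually large share of the group's range (Dixon's test). Chance marks about 1 in 20 such groups, and the events of a gene share forms, so the groups are not independent.

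The library of week 6 induced replicate 1 stood apart 3 times. It had 0.63 for the Myh8 last exon of uc007jmm.1 against uc007jmn.1, where the other induced libraries ran from 0.04 to 0.20. For the last exon of uc007jml.1 against uc007jmr.1 it had 0.23, with the others between 0.05 and 0.11. For the first exon of uc007jmr.1 and uc007jms.1 against uc007jmp.1 it had 0.20, with the others between 0.01 and 0.04. In each of these it lay towards the controls, and it also had the lowest Mbnl1 exon of the induced libraries (0.12). Week 20 induced replicate 2, from quadriceps, stood apart at 0.16 for the last exon of uc007jml.1 against uc007jms.1 (others 0.59 to 0.78) and at 0.32 for the Myh8 retained intron (others 0.03 to 0.12).

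Among controls, the dox control of week 12 had 0.38 for the first exon of uc007jmr.1 and uc007jms.1 against uc007jmo.1 (others 0.04 to 0.12). The dox control of week 20 had 0.04 for the last exon of uc007jml.1 against uc007jmm.1 (others 0 to 0.02). Week 20 no dox replicate 1 had 0.64 for uc007jml.1 against uc007jmr.1 (others 0.19 to 0.38). Week 6 no dox replicate 1 had 0.72 for the Ncam1 first exon of uc009pjl.1 (others 0.13 to 0.37).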

How the results depend on the processing

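The 6 member events with a fitted induced difference of at least 0.1 kept their sign in all 132 values under alternatives. Of these values 0 moved by more than the larger SD of the arms, a wide bar. The Myh8 last exon of uc007jmm.1 against uc007jmn.1 went from -0.407 to -0.224 in gastrocnemius alone and counts as unmoved. Filters on events cannot alter these differences, the first-exon events of Runx1 are 1 signal, and the genes were chosen on this contrast. The number of member events at 0.1 or more was 5 to 8 with single libraries left out. Over all events, 2 were called for induced against control, and 0 without the muscle term, 0 at a mean PSI of 0.05 to 0.95, 4 without trend or robust moderation, 1 in gastrocnemius alone, 0 in quadriceps alone, 0 with no dox libraries alone as controls, and 0 to 40 with single libraries left out, the most without week 6 induced replicate 1. The muscle contrast had 1 call, and 1 to 2 with single libraries left out. Dox control against no dox had 0 calls, 1 in gastrocnemius alone and 0 to 1 with single libraries left out. Week 20 against week 6 in controls had 0, and 0 to 1 with single libraries left out. List events had 0, and 0 to 1 likewise. The Ncam1 first exon of uc009pjl.1 ran from -0.156 to -0.061, nearest 0 without week 6 no dox replicate 1. The Myh8 first exon of uc007jmr.1 and uc007jms.1 changed sign in some fits. Between muscles it was -0.094 and ran from -0.116 to -0.037 with single libraries left out. For dox control against no dox it was 0.031, with -0.013 in gastrocnemius alone, -0.038 without the dox control of week 20 and -0.038 to 0.083 over all libraries left out. The cause was not tested. A replicate block, pairing induced and no dox libraries of the same week and number, gave 0 calls for induced against control, 0 for muscle, and 0.005 for that Myh8 event between muscles. It left 20 list events at an unadjusted p under 0.05 (7.78%, beside 5.78% of all events). Deviations of same-numbered libraries correlated at 0.010, -0.012 and 0.015 for weeks 6, 12 and 20. These values show no pairing by number, but they cannot settle it, since some same-numbered libraries differ in muscle. Unknown depth, a scale of 2 decimals and 3 dox controls limit what these events can show.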

Other observations

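In quadriceps alone, the Myh8 last exon of uc007jml.1 against uc007jms.1 had a fitted induced difference of -0.535 as listed. It was 0.168 in gastrocnemius alone and -0.007 over all libraries. Only week 20 has quadriceps of both arms. The quadriceps value therefore sets week 20 induced replicate 2 (0.16) against week 20 no dox replicates 1 and 2 (0.81 and 0.58). The last exon of uc007jml.1 against uc007jmm.1 had 0.175 in quadriceps alone, from the same libraries. It had 0.024 in gastrocnemius alone and 0.077 over all libraries. In gastrocnemius, weeks 6 and 20 have a single induced library each, and week 20 a single control, its dox control. The difference between muscles in these values was not tested. A skipped exon of 801 nt on the minus strand within the span of Ncam1 (chromosome 9, 49506853 to 49507653), to which the file gives no symbol, had 0.145 ± 0.048 (SD, n = 6) in induced muscle and 0.151 ± 0.065 (SD, n = 9) in control muscle. The skipped exon of 197 nt of Gm11149 had 0.838 ± 0.074 (SD, n = 6) in induced muscle and 0.749 ± 0.118 (SD, n = 9) in control muscle. The RefSeq promoter of Myh3, the gene with no event, lies at chromosome 11, 67078050 to 67078349, with an E-box at -191, a RUNX site at -94 and a TATA box at -29 from the start site.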
